A study of Mus musculus with 16 samples.

Results

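Left ventricles of mice that ate a high-fat, high-sucrose diet containing ertugliflozin (HFHS ertugliflozin, 4 libraries) were compared with left ventricles of mice that ate a low-fat control diet containing the same drug (CD ertugliflozin, 4 libraries). The comparison was defined by the labels and takes 8 of the 16 libraries of the series and 15841 of the 53764 genes in the count table, those with enough reads to be tested. All 16 animals were male C57BL/6J mice whose diets began at 8 weeks of age and ran for 4 months. Both groups compared here received ertugliflozin in the food at 0.5 mg/g, and the remaining 8 libraries came from mice on either diet without drug (CD untreated and HFHS untreated, 4 each). The submitters sequenced 4 animals per group that they described as representative of a larger set, so the spread between libraries is that of selected animals.

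Ertugliflozin blocks SGLT2, the transporter that returns filtered glucose to the blood in the kidney, and treated animals lose glucose in the urine. The adult ventricle takes most of its energy from fatty acids, and a rich supply of fat raises the enzymes of fatty acid use through the nuclear receptors of the PPAR family. Another gene programme described here, the immunity-related and guanylate-binding GTPases together with class I antigen presentation, is switched on in most cell types by interferons, above all interferon-gamma.

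The 8 libraries held 16554399 to 21452212 counts. The summed level of 11 cardiomyocyte markers was 89090 to 104300 CPM (counts scaled to a common library size), and that of lung and thymus markers was at most 0.47 CPM. Slc5a2, which encodes SGLT2, had 0 to 3 reads in each of the 16 libraries. The second principal component of the 8 libraries (22.8% of variance) separated the diets without overlap. The first (26.1%) separated CD ertugliflozin replicates 2 and 3 (28.2 and 18.6) from replicates 1 and 4 (−16.2 and −16.3). HFHS ertugliflozin replicate 3 (10.8) lay on the side of the former, and HFHS replicates 1, 2 and 4 (−11.2, −8.41 and −5.53) on the other. CD replicates 2 and 3 also had higher summed valve and cartilage markers (96.8 and 72.0 CPM) than CD replicates 1 and 4 (30.1 and 29.5 CPM), while the HFHS ertugliflozin libraries spanned 37.4 to 90.2 CPM. Other sums split the CD libraries likewise. Among them were fibroblast (3584 and 3823 against 2946 and 3049 CPM) and macrophage markers (635 and 761 against 535 and 556). Adipocyte markers were also higher in CD replicates 2 and 3, and cardiomyocyte markers lower (96100 and 93890 against 101900 and 104300). Atrial, mural, lymphatic and B and plasma cell sums did not split this way. Counts are therefore also given without CD ertugliflozin replicates 2 and 3, which leaves 2 CD libraries whose spread is assumed to be that of the other groups. HFHS replicate 3 was kept in that fit.

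Among treated mice 341 genes were higher on HFHS and 243 lower (edgeR quasi-likelihood test, adjusted p under 0.05), which is 2.15% and 1.53% of the genes tested and 3.69% together. The differences were small: the median log2 fold change (HFHS minus CD throughout) was 0.34 for the higher and −0.33 for the lower genes, and 18 and 28 of them lay beyond 1 in size. Over all genes the median was −0.01. All 4 HFHS libraries lay above all 4 CD libraries for 330 of the 341 higher genes and below them for 234 of the 243 lower genes, against 6.79% and 6.38% of all genes tested. Because the genes were called from these same values, the separation largely follows from the call and is not separate evidence. The total of 584 fell to 287, 303, 336 and 367 without HFHS ertugliflozin replicates 1, 2, 3 and 4, to 389 and 359 without CD ertugliflozin replicates 2 and 3, and to 236 without both of the latter. Replicates are separate animals, and in whole tissue fewer cells of a type and less RNA per cell cannot be told apart.

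**Figure D1:**
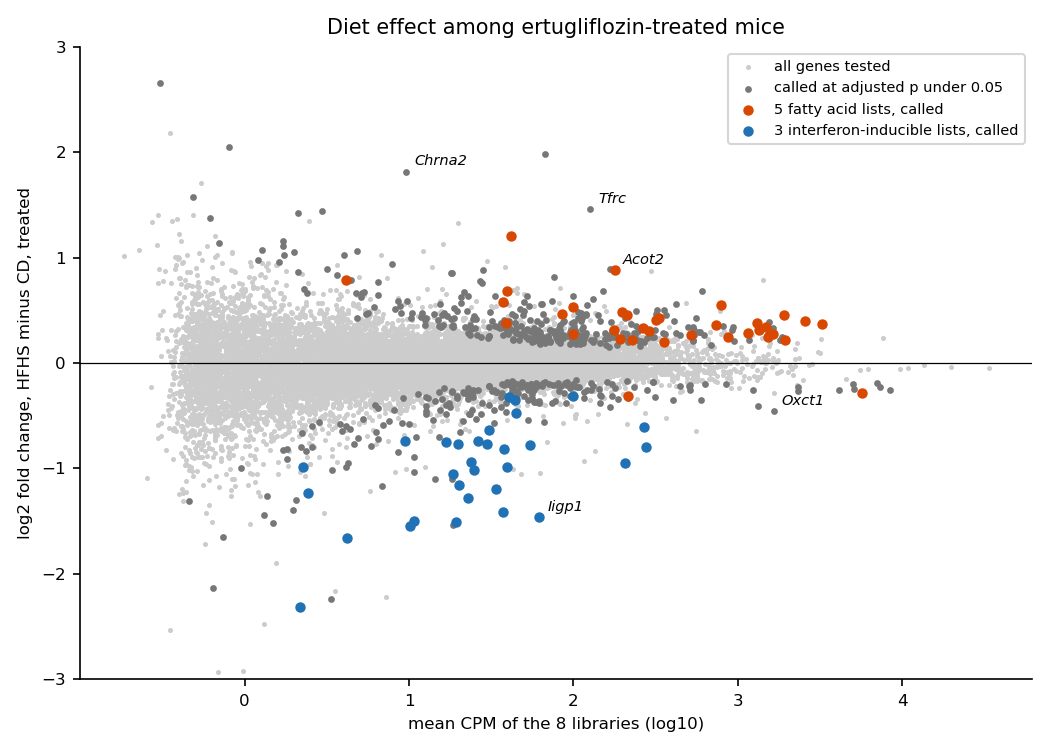
Mean CPM of the 8 libraries on a log10 scale (x axis) against the log2 fold change between HFHS and CD among treated mice (y axis), 1 point per gene. Called genes of 5 fatty acid lists (orange) lie above 0 apart from 2, called genes of the GTPase and class I lists (blue) lie below 0, and 1 gene beyond 3 in size is outside the axis.

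Fatty acid oxidation in mitochondria was the metabolic list with the most members higher on HFHS. Of 21 genes 16 rose and 0 fell, with a list median of 0.29, and the 5 that did not pass ranged from −0.17 (Echs1) to 0.08 (Eci1). Decr1, the dienoyl-CoA reductase needed for polyunsaturated fatty acids, stood at 654, 611, 575 and 721 CPM in the CD libraries and at 932, 936, 946 and 930 in the HFHS libraries. It rose by 0.55 on the log2 scale (SE 0.07, edgeR adjusted p = 1.05e-04), and the groups did not overlap. Hadha, the large subunit of the trifunctional protein, measured 2239, 2179, 2111 and 2385 CPM on CD and 2938, 3099, 2803 and 2893 on HFHS. Every HFHS value was above every CD value, and the difference was 0.40 (SE 0.06, edgeR adjusted p = 6.57e-04). The carnitine system that carries fatty acids into the matrix rose at each step listed: Cpt1a (0.47), Cpt1b (0.38), the carrier Slc25a20 (0.41) and Cpt2 (0.43). Ech1, which handles unsaturated chains, rose by 0.46, the long-chain dehydrogenase Acadl by 0.35 and Etfdh, which passes the electrons to the respiratory chain, by 0.29. The electron transfer flavoprotein subunits Etfa (0.03) and Etfb (−0.02) did not pass. Without CD ertugliflozin replicate 2, or without replicate 3, 12 of the 16 calls were made, and without both libraries 6 were made with a list median of 0.21. Among the genes named, Decr1, Hadha, Ech1, Cpt1a, Cpt2 and Slc25a20 passed in every one of these fits.

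Acyl-CoA thioesterases, which release free fatty acids from CoA, and peroxisomal genes changed by larger folds but in fewer members. Acot2, the mitochondrial thioesterase, measured 139, 119, 115 and 129 CPM on CD and 234, 244, 229 and 218 on HFHS, a rise of 0.88 (SE 0.08, edgeR adjusted p = 1.15e-05). Acot1, its cytosolic paralog, rose by 1.21 (SE 0.17) from 25.2 ± 1.46 to 58.2 ± 10.1 CPM (SD, n = 4 per group), although counts of these near-identical copies are uncertain. Dbi, the acyl-CoA binding protein, rose by 0.53. The other 5 genes of this list of 8 (Acot7, Acot9, Acot11, Acot13 and Them4) did not pass, and its median was 0.01 (−0.01 with upper-quartile scaling). The thioesterases Acot3, outside the lists, and Acot4, in the peroxisomal list, rose by 1.11 and 0.79. In peroxisomes, which shorten very long chains, 6 of 15 genes rose and 0 fell. Pex11a, which drives peroxisome division, measured 29.4, 26.3, 28.5 and 36.2 CPM on CD against 47.3, 51, 49.5 and 46.4 on HFHS. These groups lay apart, and the rise was 0.69 (SE 0.09, edgeR adjusted p = 2.19e-04). The bifunctional enzyme Hsd17b4 rose by 0.32. The peroxisomal count ranged from 3 (without HFHS ertugliflozin replicate 1) to 7 when 1 library was left out and was 2 without CD ertugliflozin replicates 2 and 3 together. Catalase (Cat), the peroxisomal enzyme that breaks down peroxide, rose by 0.46 from 310 ± 22 to 425 ± 13.6 CPM (SD, n = 4 per group).

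Uptake and storage of fat followed in part. Of 15 genes of uptake and activation 4 rose and 1 fell. Cd36, the main fatty acid transporter of the cardiomyocyte membrane, lay at 2796 to 2848 CPM in the CD libraries and at 3542 to 3830 in the HFHS libraries, a rise of 0.37 (SE 0.06, edgeR adjusted p = 6.79e-04). The cytosolic carrier Fabp3 rose by 0.38 (SE 0.05). Reads of its pseudogene copy could be divided with it. Lpl, which frees fatty acids from circulating lipoproteins, was the member that fell, by 0.29 on the log2 scale. Its call ended when any 1 of the 8 libraries was left out (edgeR adjusted p = 0.0564 to 0.109). Among 13 lipid droplet genes 4 rose and 1 fell. Cidea, a droplet fusion protein, rose by 0.58 (SE 0.06, edgeR adjusted p = 6.59e-05), from 27.6 to 31 CPM across CD libraries to 43.3 to 46.3 across HFHS libraries. Plin5, which tethers droplets to mitochondria, rose by 0.48. Without CD ertugliflozin replicates 2 and 3 together, 2 members rose in each of the uptake and droplet lists. Gpam and Agpat3, acyltransferases of glycerolipid synthesis, rose by 0.50 and 0.46 and were the 2 of 12 triglyceride genes that passed. Of 16 genes of fatty acid synthesis and desaturation 2 rose, among them Me1, an enzyme that supplies NADPH (0.45, SE 0.07). None of 19 genes of cholesterol synthesis and uptake passed by edgeR, DESeq2 or either limma fit, with 2 at an unadjusted p under 0.05.

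**Figure D2:**
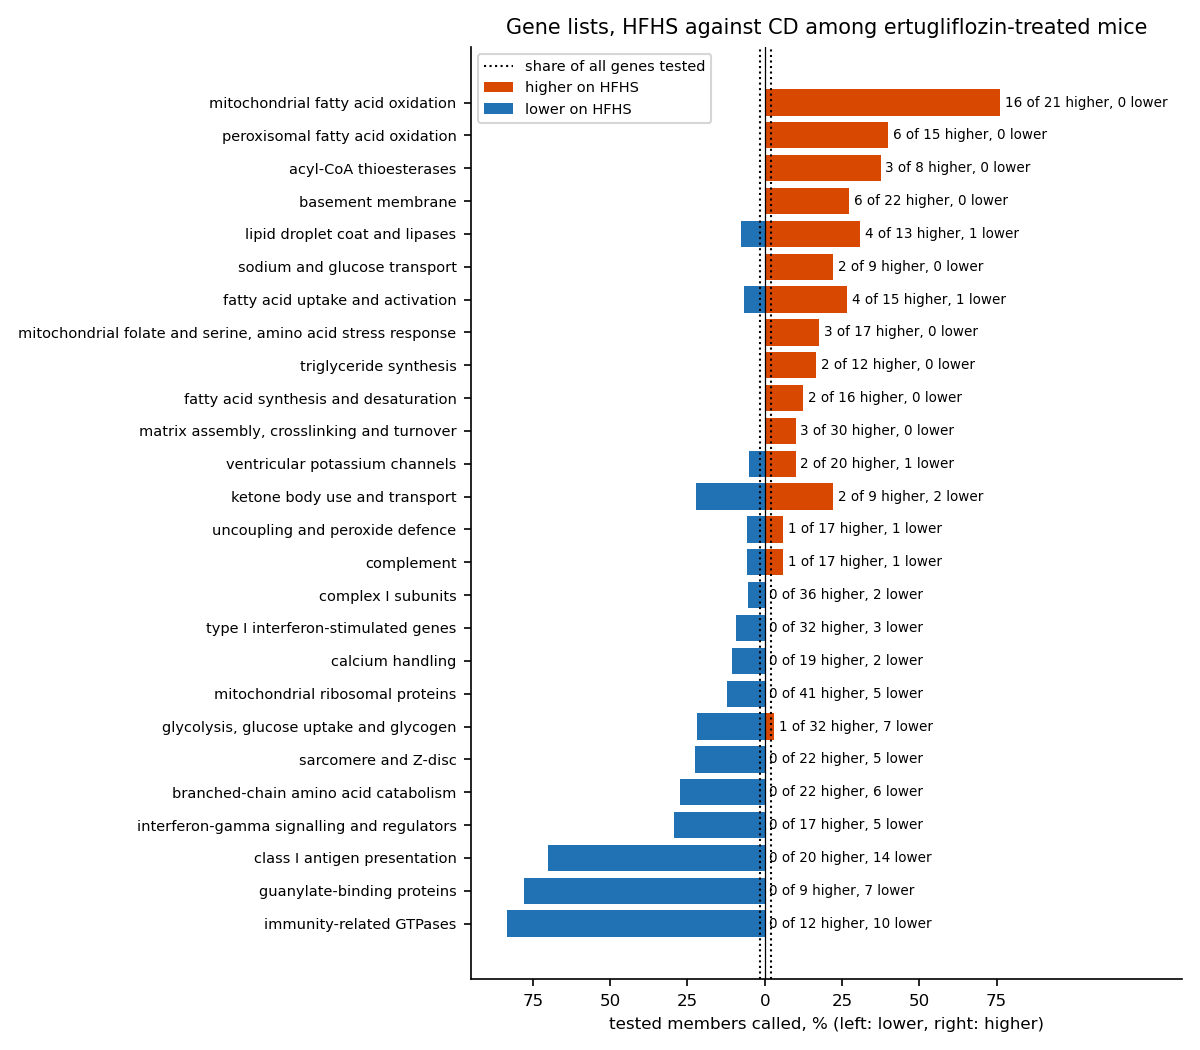
Share of tested members of each pathway list called higher (orange, right) or lower (blue, left) on HFHS among treated mice, for lists with at least 2 called members. Dotted lines mark the shares of all genes tested (2.15% higher, 1.53% lower), and mitochondrial fatty acid oxidation (16 of 21 higher) and immunity-related GTPases (10 of 12 lower) are at the ends.

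Genes of ketone body use and transport moved both ways, and 2 of 9 rose and 2 fell (list median −0.07). When 1 library was left out 1 to 2 rose. Oxct1, which commits ketone bodies to oxidation, was among those that fell and measured 1852, 1876, 1931 and 1977 CPM on CD and 1357, 1479, 1358 and 1379 on HFHS. The groups lay apart, with a difference of −0.45 (SE 0.05, edgeR adjusted p = 6.38e-05). The gene of the dehydrogenase that interconverts ketone bodies, Bdh1, was lower in each HFHS library (87.8 to 107 CPM) than in each CD library (140 to 203), at −0.83 with an SE of 0.29. That did not pass (edgeR adjusted p = 0.143).

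Branched-chain amino acid catabolism and glucose use also held lower metabolic genes. Of 22 genes of branched-chain amino acid breakdown 6 fell and 0 rose (list median −0.12), 4 to 7 fell when 1 library was left out, and 3 without CD ertugliflozin replicates 2 and 3 together. Bckdhb, a subunit of the complex that commits these amino acids to oxidation, measured 57.3, 67.5, 58.2 and 67.9 CPM on CD and 44, 45.2, 40.6 and 43.1 on HFHS, without overlap. It fell by 0.54 on the log2 scale (SE 0.06, edgeR adjusted p = 1.01e-04). Dbt of the same complex changed by −0.31 and the dehydrogenase Acadsb by −0.33. Of 32 genes of glycolysis, glucose uptake and glycogen 7 fell and 1 rose. They included Slc2a4, the insulin-responsive glucose transporter GLUT4, at 439, 426, 436 and 519 CPM on CD and 362, 363, 344 and 363 on HFHS (log2 difference −0.35, SE 0.07, edgeR adjusted p = 0.0102). The muscle enolase Eno3 (−0.41) and lactate dehydrogenase B (Ldhb, −0.26) fell too. The count of 7 became 3 without HFHS ertugliflozin replicate 1 or 2, and 4 without HFHS replicate 3, CD replicate 1, 2 or 4, or CD replicates 2 and 3 together. Akt1, a kinase of insulin signalling, changed by −0.35 (SE 0.07) and was the 1 of 20 genes of that pathway that passed.

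Pdk4, the kinase that turns off pyruvate dehydrogenase when fat is used, was higher in all 4 HFHS libraries (1671 to 2039 CPM) than in the CD libraries (923, 1543, 945 and 743). The difference of 0.79 (SE 0.24) did not pass (edgeR adjusted p = 0.0912), and CD replicate 2 was the high CD library. Without that library the difference was 1.05 (edgeR adjusted p = 0.0271), and the gene passed with all libraries by DESeq2 (adjusted p = 0.0313) and limma-voom (adjusted p = 0.0319). Over the 8 fits that left out 1 library the difference ranged from 0.66 to 1.05 (edgeR adjusted p = 0.0271 to 0.208). Pdk4 passed in 4 of 18 alternatives. A sensitive PPAR target, Angptl4, whose protein restrains lipoprotein lipase, measured 22.3, 24.3, 30.9 and 3.89 CPM on CD and 33.7, 48, 38.7 and 38.1 on HFHS. CD replicate 4 stood far below the rest, and the difference of 0.96 (SE 0.46) did not pass (edgeR adjusted p = 0.293). Ucp3, the muscle uncoupling protein, overlapped between diets (42.3 to 163 CPM on CD, 115 to 159 on HFHS). Ppara itself was at −0.07 (SE 0.11), and Ppargc1a at −0.21 (SE 0.10).

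**Figure D3:**
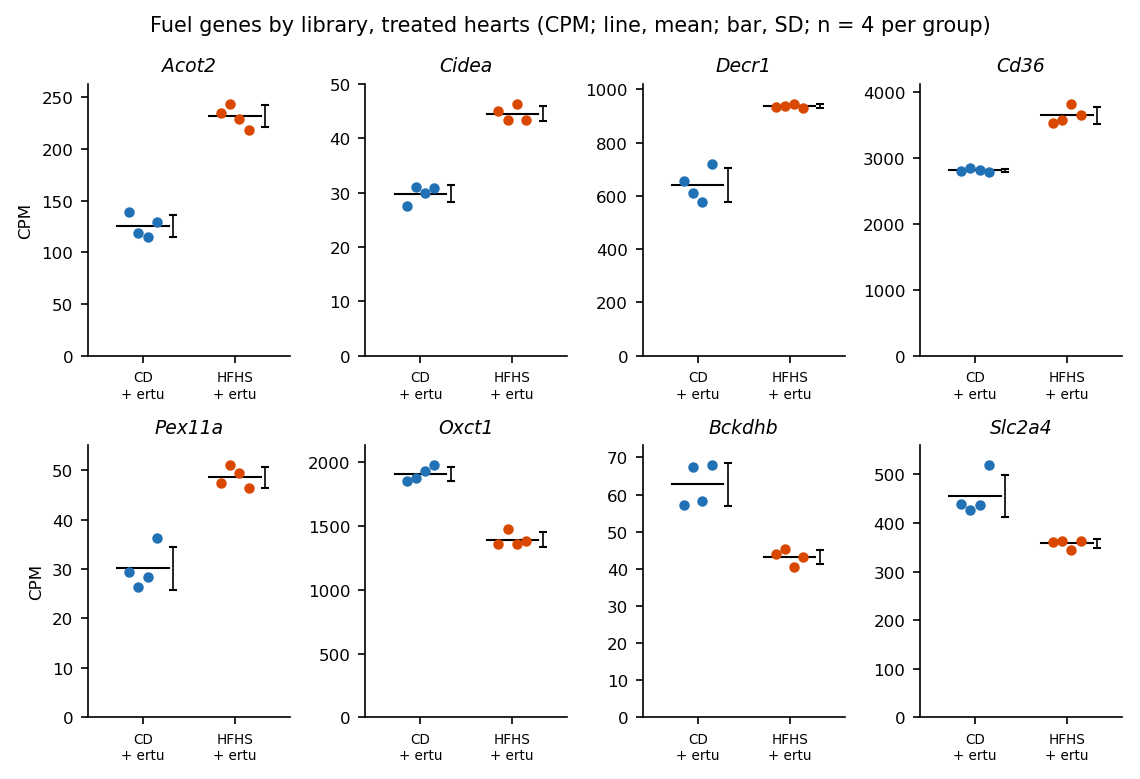
CPM of 8 genes of fuel use in each treated library (points), with group mean (line) and SD (bar), n = 4 per group and axes from 0. Acot2, Cidea, Decr1, Cd36 and Pex11a are higher and Oxct1, Bckdhb and Slc2a4 lower in every HFHS library than in every CD library.

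Genes of the contractile and respiratory machinery were mostly slightly lower on HFHS, with few that passed. Negative log2 fold changes were found for 34 of 36 complex I subunits (2 fell), 22 of 23 subunits of complexes III and IV (1 fell), 38 of 41 mitochondrial ribosomal proteins (5 fell) and 14 of 15 ATP synthase subunits. No ATP synthase subunit passed by edgeR, 6 had an unadjusted p under 0.05, DESeq2 called 3 lower and each limma fit 1. The list medians lay between −0.13 and −0.10. Cytosolic ribosomal proteins leaned the same way, with 37 of 41 negative and 1 that fell (median −0.08). Over all calls, the median exon length was 2747 bases for lower and 5848 for higher genes, against 4024 for all genes tested. The part of gene length in the list values was not tested. The complex I genes that fell were Ndufa12 and Ndufb9, and in complexes III and IV it was Cox5a. Ndufa12 did not pass by edgeR without CD replicate 1 or 4 or HFHS replicate 1 or 3 (adjusted p = 0.0572 to 0.0926), Ndufb9 without CD replicate 2 or 4 or HFHS replicate 1, 2 or 3 (0.0511 to 0.0907), and Cox5a without CD replicate 1, 2 or 4 or HFHS replicate 1, 2 or 3 (0.0595 to 0.101). Mrps30, a protein of the mitochondrial ribosome, fell by 0.36 on the log2 scale (SE 0.06, edgeR adjusted p = 0.00269). The mitochondrial ribosomal count of 5 became 1 without HFHS ertugliflozin replicate 2 and 2 without HFHS replicate 1 or 3 or CD replicate 1, 2 or 4. Of 22 sarcomere genes 5 fell, all of them troponin or myosin light chain genes: Tnnc1, Tnni3, Tnnt2, Myl2 and Myl3, by 0.20 to 0.25. None of those 5 passed by edgeR without HFHS ertugliflozin replicate 1 or without CD ertugliflozin replicates 2 and 3 together, 1 passed without HFHS replicate 2, 3 or 4 or CD replicate 2 or 4, and 2 passed without CD replicate 3. The summed cardiomyocyte markers, which share several of these genes, moved with them (93890 to 104300 CPM on CD, 89090 to 95330 on HFHS), and 6 of the 11 fell (0 without HFHS ertugliflozin replicate 1 or 3). Their part in the respiratory and sarcomere values was not tested. Of 17 TCA cycle genes none passed by edgeR, DESeq2 or limma, with 2 at an unadjusted p under 0.05.

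Interferon-inducible genes were lower on HFHS among treated mice. Of 12 immunity-related GTPases, which attack the vacuoles of intracellular pathogens, 10 fell and 0 rose (median −1.13). Of 9 guanylate-binding proteins, a related GTPase family, 7 fell (median −0.86), and of 20 class I antigen presentation genes 14 fell (median −0.67). Among 17 genes of interferon-gamma signalling 5 fell (median −0.28), and 31 of 32 type I interferon-stimulated genes were negative while 3 fell (median −0.38). None rose in any of these lists. Without CD ertugliflozin replicates 2 and 3 together, 6 of the 12 immunity-related GTPases, 5 of the 9 guanylate-binding proteins, 8 of the 20 class I genes and 3 of the 17 signalling genes passed, and 0 of the 32 type I genes did. The first 3 medians were then −0.85, −0.79 and −0.46. DESeq2 called 8 type I genes lower with all libraries.

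Known interferon elements were found in the DNA around the start of part of these genes. The 3 promoters shown belong to genes that fell and lie on chromosome 11, and each holds both elements marked below. They do not stand for all such genes: Irgm1, also lower and on chromosome 11, held only the second element. Each runs 5′ to 3′ from 250 bases before to 50 bases after the transcription start and comes from RefSeq (GRCm38.p6). Capitals mark a gamma-activated site, TTCNNNGAA, and after it the core of the interferon-stimulated response element, GAAA repeated after any 2 bases.
Tgtp2, chr11:49064163-49064462, minus strand: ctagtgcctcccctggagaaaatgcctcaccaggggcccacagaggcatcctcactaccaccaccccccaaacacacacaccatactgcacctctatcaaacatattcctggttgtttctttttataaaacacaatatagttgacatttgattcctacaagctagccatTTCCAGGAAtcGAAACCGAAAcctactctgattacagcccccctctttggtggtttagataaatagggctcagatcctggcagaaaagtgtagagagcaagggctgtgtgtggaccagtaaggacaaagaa
Igtp, chr11:58199306-58199605, plus strand: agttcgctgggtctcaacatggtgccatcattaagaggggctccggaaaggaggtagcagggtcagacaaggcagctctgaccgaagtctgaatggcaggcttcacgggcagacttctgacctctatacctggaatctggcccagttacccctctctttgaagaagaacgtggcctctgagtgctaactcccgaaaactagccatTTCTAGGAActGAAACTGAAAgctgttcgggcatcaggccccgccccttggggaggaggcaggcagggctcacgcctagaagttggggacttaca
Irgm2, chr11:58214727-58215026, plus strand: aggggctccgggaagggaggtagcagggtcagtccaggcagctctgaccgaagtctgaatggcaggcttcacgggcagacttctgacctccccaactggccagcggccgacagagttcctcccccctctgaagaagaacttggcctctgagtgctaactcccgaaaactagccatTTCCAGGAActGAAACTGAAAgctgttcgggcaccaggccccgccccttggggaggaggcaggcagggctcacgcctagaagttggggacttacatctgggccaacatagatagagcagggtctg
In all 3 the elements are 2 bases apart, and the gamma-activated site begins 81 (Tgtp2), 45 (Igtp) and 75 (Irgm2) bases before the start. Promoters were found for 28 of the 39 members of the 5 lists that fell. Searched on both strands, the GAAA repeat was in 15 of the 28 (53.6%), including Gbp2, Gbp3, Gbp5, Gbp7, B2m, Bst2, Stat2, Irgm1 and H2-T22, against 3.82% of tested genes with a promoter and 3.44% of all 32851 promoters. TTCNNNGAA was in 11 (39.3%), including Irf1, Psmb8, Gbp5 and Gbp7, against 8.19% of tested genes and 8.30% of all promoters. Several of these genes are copies of one another and share promoter sequence, so the 28 are not independent. All 28 come from lists of interferon-related genes, and list members that did not fall were not counted. The shares therefore cannot tell the genes that fell from the rest of their lists. Of the 39 fatty acid and ketone genes that rose, 30 had a promoter. The PPAR direct repeat (AGGTCA repeated after any 1 base) was in 0 of them, against 0.0546% of tested genes and 0.0396% of all promoters. An exact repeat this rare would hardly be met in 30 genes, so the 0 says nothing about PPAR elements. A match is a description of the sequence in this window only.

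Tgtp2, one of a pair of T cell-specific GTPase copies, lies on chromosome 11 from 49057194 to 49064206 (GRCm38). It measured 15.2, 18.2, 13.1 and 13.8 CPM in the CD ertugliflozin libraries and 5.63, 5.57, 4.28 and 5.05 in the HFHS ertugliflozin libraries. The groups did not overlap, with a log2 difference of −1.55 (SE 0.15, edgeR adjusted p = 1.15e-05). Its copy Tgtp1 was at −1.66 (SE 0.24), and reads could be divided between the pair. Iigp1, on chromosome 18 from 60376027 to 60392634, measured 89.8, 109, 90.2 and 73.2 CPM on CD and 35.9, 36.1, 30.1 and 29.2 on HFHS. The groups lay far apart again, and the difference was −1.46 (SE 0.12, edgeR adjusted p = 1.15e-05). Igtp, on chromosome 11 from 58199556 to 58207591, measured 27.1, 34.3, 38.5 and 30 CPM on CD and 14.4, 12.3, 14.5 and 12.2 on HFHS, a difference of −1.28 (SE 0.12, edgeR adjusted p = 1.18e-05). In the annotation Igtp overlaps Irgm2 on the same strand, so reads of the overlap could be lost or misassigned. Irgm2 was at −0.98 (SE 0.11), and Irgm1, which restrains the other family members, at −0.64 (SE 0.09).

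The guanylate-binding proteins that fell ranged from −0.47 (Gbp9) to −1.20 (Gbp4). Gbp4 measured 47.4, 50.1, 43.3 and 48 CPM on CD and 21.9, 19.1, 21 and 20.1 on HFHS (SE 0.15, edgeR adjusted p = 2.95e-04). Its 4 CD libraries lay within a narrow range, far above the HFHS range. Gbp3 was at −0.94, Gbp7 at −0.81 and Gbp5, which promotes inflammasome assembly, at −0.75.

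Class I presentation fell at its activator and at several steps after it. Nlrc5, the transactivator of class I genes, measured 17.1, 17, 19 and 10.7 CPM on CD and 6.38, 5.62, 5.30 and 5.17 on HFHS. CD replicate 4 was the lowest of its group and still above all HFHS libraries, and the difference was −1.50 (SE 0.17, edgeR adjusted p = 8.55e-05). Tap1, which pumps peptides into the endoplasmic reticulum, measured 24.6, 26.8, 28.4 and 20.4 CPM on CD against 13, 11.8, 13 and 10.4 on HFHS (−1.05, SE 0.12, edgeR adjusted p = 9.91e-05). The immunoproteasome subunit Psmb8 was at −0.77 (edgeR adjusted p = 0.00658, and 0.0684 without CD ertugliflozin replicates 2 and 3 together), and the heavy chains H2-K1 and H2-T22 at −0.95 and −0.74. H2-K1 measured 236, 270, 354 and 226 CPM on CD and 150, 136, 149 and 127 on HFHS. H2-Q7 was at −1.51, though reads of H2-Q6 and H2-Q7 may be confused. B2m, the light chain shared by all class I molecules, was lower in each HFHS library (186 to 225 CPM) than in each CD library (265 to 490), at −0.80 (SE 0.19, edgeR adjusted p = 0.0354). Its call ended without CD replicate 2 (adjusted p = 0.0713), CD replicate 3 (0.0684) or HFHS replicates 1, 2, 3 or 4 (0.0957, 0.0931, 0.0642 and 0.0875). Tapbp, Erap1 and Psme2 lay between −0.10 and −0.08 and did not pass. Class II genes had a median of −0.94 over 9 genes, of which H2-DMa passed by edgeR and 8 by DESeq2. H2-DMa did not pass without CD replicate 2 or 3 or without any 1 of the HFHS libraries (edgeR adjusted p = 0.0534 to 0.105).

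**Figure D4:**
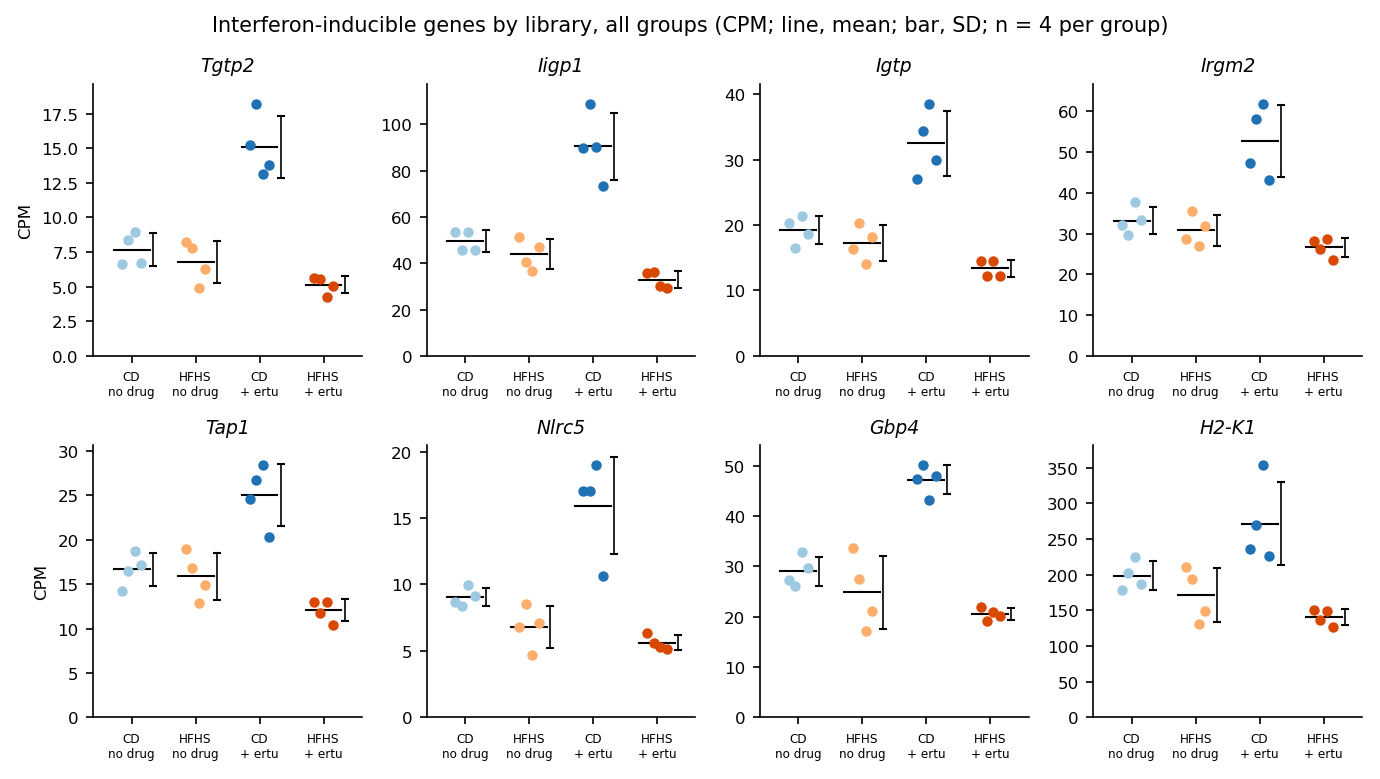
CPM of 8 interferon-inducible genes in each library of all 4 groups (points), with mean (line) and SD (bar), n = 4 per group and axes from 0. In every gene the 4 HFHS ertugliflozin libraries lie below the 4 CD ertugliflozin libraries, while the untreated diets overlap.

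Among the 17 signalling genes 3 passed without CD ertugliflozin replicate 2 or 3 or HFHS ertugliflozin replicate 1, 2 or 4. The interferon-activated transcription factor gene Stat2 was at −0.48 (SE 0.08) and the checkpoint ligand Cd274 (PD-L1) at −0.70 (SE 0.10, edgeR adjusted p = 6.89e-04). Irf1 was at −0.45 and overlapped between groups, and its call ended without CD replicate 2 (adjusted p = 0.0501) or 3 (0.0638) or without HFHS replicate 1 (0.0732), 2 (0.068) or 4 (0.0505). The receptor genes Ifngr1 (0.03) and Ifngr2 (−0.07) and the kinase Jak2 (0.06) did not pass. The transcript of interferon-gamma itself, Ifng, had at most 1 read in each of the 8 libraries, which is too few to compare.

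Marker genes of immune and blood cells moved in part with these lists. Of 20 macrophage markers 19 were negative (median −0.33), none passed by edgeR or limma, 7 had an unadjusted p under 0.05 and DESeq2 called 4 lower. Their summed level was 535, 635, 761 and 556 CPM in the CD libraries and 478, 474, 563 and 514 in the HFHS libraries, with overlap. T and NK cell markers summed to 11.4 to 16.2 CPM on CD and 10.1 to 13.85 on HFHS, the defining genes Cd3e, Cd3d, Cd3g and Cd8a had at most 10 reads in any of the 8 libraries, and 3 of the markers could be tested. Erythroid markers (8 of 9 negative, none passed by any tool, 3 at an unadjusted p under 0.05) summed to 526 to 624 CPM on CD and 464 to 537 on HFHS. B and plasma cell markers did not move this way. Of 8 tested, 5 were positive (median 0.07) and none passed by any tool, with 2 at an unadjusted p under 0.05. The part of these cells in the interferon-inducible differences was not tested.

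The same diet contrast without drug was set beside these values. On the untreated diets, the medians of the immunity-related GTPases, guanylate-binding proteins and class I genes were −0.11, −0.10 and −0.11. The difference between the diet effects, tested as an interaction over all 16 libraries, passed for 3 genes and was more negative with ertugliflozin in each (0.0189% of genes tested, 676 at an unadjusted p under 0.05). Tgtp2 measured 7.68 ± 1.17 CPM in CD untreated and 6.81 ± 1.52 in HFHS untreated (SD, n = 4 per group), so the 4 CD ertugliflozin libraries stood above all 12 others and the HFHS ertugliflozin libraries overlapped with HFHS untreated. Its diet effect differed by −1.38 between drug and no drug (95% interval −1.83 to −0.93, edgeR adjusted p = 0.0219). For Iigp1 the difference was −1.29 (−1.66 to −0.92) and for Igtp −1.13 (−1.49 to −0.76), with the same adjusted p. In both, too, the lowest CD ertugliflozin library (73.2 and 27.1 CPM) was above the highest untreated one (53.7 and 21.4 CPM). Tap1 (−0.98, edgeR adjusted p = 0.0809), Irgm2 (−0.88, 0.122) and Gbp3 (−1.08, 0.120) did not pass. No gene passed by edgeR when replicate 1, 2 or 4 of either untreated group, or replicate 2, 3 or 4 of HFHS ertugliflozin, was left out (576 to 929 genes at an unadjusted p under 0.05). Without HFHS untreated replicate 3 there were 18 and without CD ertugliflozin replicate 4 there were 7. DESeq2 called 18 with all libraries and each limma fit 3.

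For the fuel genes no difference between the diet effects passed. Acot2 rose by 0.80 on the untreated diets and by 0.88 with drug, a difference of 0.08 with a 95% interval of −0.16 to 0.32. The difference for Oxct1 was −0.10 (−0.25 to 0.05) and for Decr1 0.07 (−0.13 to 0.27). The median of the mitochondrial oxidation list was 0.21 without drug, where 9 of 21 genes rose, and 0.29 with it. Without drug 1.45% of all genes were higher and 0.619% lower.

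**Figure D5:**
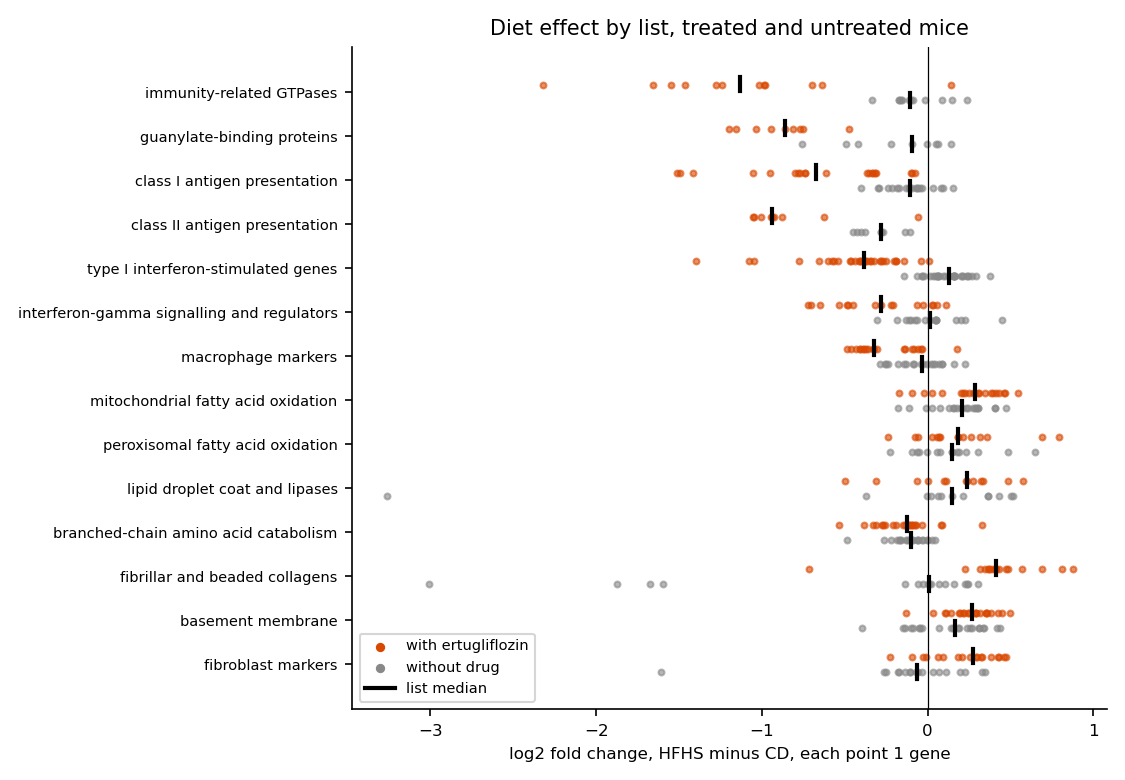
Log2 fold change of HFHS against CD (x axis) for each tested member of 14 lists, with ertugliflozin (orange) and without drug (grey), black bars marking list medians. The immunity-related GTPases have a median of −1.13 with drug and −0.11 without, the mitochondrial oxidation genes 0.29 and 0.21.

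Genes of the extracellular matrix were mostly higher on HFHS, and a small number passed. Of 22 basement membrane genes 21 were positive and 6 rose (median 0.27). Hspg2, the core protein of perlecan, measured 784, 684, 723 and 672 CPM on CD and 975, 898, 925 and 866 on HFHS, without overlap (0.36, SE 0.06, edgeR adjusted p = 0.00316). Without HFHS ertugliflozin replicate 1 or 3 the count of 6 became 2, without CD ertugliflozin replicate 4 it became 3, and without CD ertugliflozin replicates 2 and 3 together it became 3. DESeq2 gave 10. Of 17 fibrillar and beaded collagens 16 were positive (median 0.41) and 1 rose, Col6a1 at 0.40 (SE 0.09). Its edgeR adjusted p was 0.0508, 0.0534 and 0.0615 without CD replicates 1, 2 and 4 and 0.0632, 0.0616 and 0.0607 without HFHS replicates 1, 2 and 3. Col1a1 (0.47, SE 0.21) and Col3a1 (0.43, SE 0.21) overlapped between groups and did not pass. Fbln2, a fibulin of elastic and vascular matrix, rose by 0.39 (SE 0.07) from 147 ± 7.31 to 193 ± 7.39 CPM (SD, n = 4 per group). Fibroblast markers moved with them: 14 of 18 were positive (median 0.27), 2 rose, and their sum was 2946, 3584, 3823 and 3049 CPM on CD and 3697, 3726, 4054 and 3827 on HFHS. CD replicate 3 lay within the HFHS range, replicate 2 just below it and replicates 1 and 4 further below. The part of the fibroblast content in the matrix values was not tested. Without drug the median was 0.17 for the basement membrane list, where 4 genes rose, and 0.01 for the collagens.

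Several genes outside the lists described above also changed, some of them with the smallest p or the largest folds. Chrna2, a nicotinic acetylcholine receptor subunit, on chromosome 14 from 66135039 to 66152948, measured 3.29, 3.79, 3.48 and 6.32 CPM on CD and 15.6, 13.9, 16.4 and 13.9 on HFHS. CD replicate 4 was the highest of its group and still far below every HFHS library. The rise of 1.82 (SE 0.15) had the smallest adjusted p of all genes (edgeR, 4.30e-06). Fbxo21, an F-box protein of a ubiquitin ligase, rose by 0.59 (SE 0.06, edgeR adjusted p = 1.15e-05), from 56.1 to 61.4 CPM across CD libraries to 83.5 to 93.1 across HFHS libraries. Tshz1, a zinc finger transcription factor, rose by 0.54 (SE 0.06). Btnl9, a butyrophilin-like gene of endothelium, rose by 0.61 (SE 0.09) and was the 1 of 20 endothelial markers that passed (list median 0.08). Mthfd2, a mitochondrial enzyme of one-carbon metabolism, rose by 0.94 (SE 0.18). Its CD libraries measured 4.23, 4.66, 7.99 and 4.60 CPM and its HFHS libraries 8.87, 10.8, 10.4 and 11.3, so CD replicate 3 came close to the HFHS range. Abat, which breaks down the neurotransmitter GABA, changed from 20.8, 35.4, 21.3 and 32.5 CPM on CD to 10.1, 8.21, 9.28 and 10.3 on HFHS (−1.54, SE 0.19, edgeR adjusted p = 3.42e-04).

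Some of the largest folds belonged to genes of low level. The inward rectifier channel gene Kcnj14 rose by 1.44 (SE 0.31), from 1.15 to 1.77 CPM across CD libraries to 2.70 to 6.05 across HFHS libraries. Its edgeR adjusted p was 0.0152, and 0.0902 without CD ertugliflozin replicates 2 and 3 together. Acot3, a peroxisomal thioesterase, rose by 1.11 (SE 0.24), from 0.76 to 1.62 CPM to 1.94 to 2.53, a call that also ended without those 2 libraries (edgeR adjusted p = 0.109). The collagenase gene Mmp13 (−1.44, SE 0.33) overlapped between groups, and its call ended without CD replicate 3 or HFHS replicate 1, 3 or 4 (edgeR adjusted p = 0.0679, 0.0782, 0.0571 and 0.0601).

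Tfrc, the transferrin receptor that brings iron into the cell, measured 83, 37.8, 70.7 and 78.1 CPM on CD and 176, 222, 188 and 157 on HFHS. The groups lay apart, with a rise of 1.46 (SE 0.29, edgeR adjusted p = 0.0155). Egln3, which marks hypoxia-inducible factors for destruction, rose by 0.69 (SE 0.12), and the complement component C7 was at −1.10 (SE 0.20). These 3 calls ended without CD ertugliflozin replicates 2 and 3 together (edgeR adjusted p = 0.103, 0.0793 and 0.0757), where the log2 differences were 1.21, 0.60 and −0.82. Among the ion channels Kcnk2, a stretch-sensitive potassium channel, rose by 0.66 (SE 0.14), a call that ended without HFHS ertugliflozin replicate 1 (edgeR adjusted p = 0.0523). Slc4a4, a sodium bicarbonate cotransporter, rose by 0.41 (SE 0.09) with overlap between the groups, and its call ended without the same library (edgeR adjusted p = 0.0579). Slc5a1, the gene of SGLT1, was at 0.59 to 1.16 CPM on CD and 0.33 to 1.24 on HFHS and did not pass (−0.13, SE 0.35).

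Stress and remodelling markers mostly did not pass between the treated diets. Of 13 genes of the fetal programme and hypertrophy 1 rose, Xirp2, which binds actin at the intercalated disc (0.34, SE 0.09, edgeR adjusted p = 0.0414, and 0.0859 to 0.105 without CD replicate 1, 3 or 4 or HFHS replicate 2, 3 or 4). Nppa (−0.57, SE 0.45), Nppb (0.01, SE 0.49) and Myh7 (0.88, SE 0.48), fetal and wall-stress genes, overlapped between groups, as did the matricellular gene Postn (0.71, SE 0.35). Of 21 immediate early genes, 19 clock genes and 21 cell cycle genes none passed by edgeR, DESeq2 or limma, and none had an unadjusted p under 0.05. The wide errors of Nppa, Nppb and Myh7 leave differences of about 1 on the log2 scale undetectable with 4 animals per group.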

How the data were processed

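Poly(A) RNA of 16 left ventricles, 4 per group, was sequenced from directional libraries, and 8 of them enter the diet comparison. The authors deposited raw counts per Ensembl gene, made from reads aligned to mm10 with STAR 2.6.0c and counted with featureCounts of Subread 1.6.2, per the submitters' processing notes. They also deposited normalized log2 values, used here only in an alternative. The sources used here do not give the annotation, the strand setting or the handling of multimapped reads, so values of copied or overlapping genes are uncertain. Symbols and positions came from GENCODE M21 (53669 IDs matched, 95 did not and hold at most 0.0106% of counts), and the table holds no gene of the mitochondrial genome. Counts of all 4 groups were fitted together with edgeR 4.0.16 in R 4.3.3 (filterByExpr, TMM factors, robust quasi-likelihood), so the groups share 1 estimate of spread (common biological coefficient of variation 0.0947). Contrasts were HFHS minus CD with drug and the difference of that effect from the one without drug, with Benjamini-Hochberg adjustment over 15841 genes and a threshold of 0.05. Each SE was derived from the F statistic as the size of the log2 difference over root F, intervals are 95%, and CPM are counts scaled by library size and TMM factor. The fit was tested on simulated data.

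Alternatives were upper-quartile and RLE scaling, no filter, a filter of 1 CPM in 4 libraries, DESeq2 1.42.0, limma 3.58.1 (voom with sample weights, and the deposited log2 values), a fit of the 8 libraries, a replicate block and leaving out each library. Leaving out CD ertugliflozin replicates 2 and 3 together was chosen after seeing the data. The comparison and the lists were chosen with earlier results of these data known. Named genes were, among called genes of at least 1 CPM with a proper symbol, the 8 largest rises and falls, the 10 smallest p, up to 4 called members of each pathway list and 2 of each cell type list, the 6 smallest p of the difference and a preset list. Other list members, and the genes under other observations, were chosen after their values were seen. Promoters came from RefSeq (GRCm38.p6). Results for some genes are not reported here.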

Additional observations from a re-analysis of the deposited data

Results flagged for a closer look

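In 3 genes the diet effect itself differed between treated and untreated mice by the interaction test: Tgtp2 (log2 difference −1.38), Iigp1 (−1.29) and Igtp (−1.13). These calls depend on single libraries. No gene passed by edgeR without replicate 1, 2 or 4 of either untreated group, or without replicate 2, 3 or 4 of HFHS ertugliflozin.

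A single library stood apart from the other 3 of its group in 17 of the 246 gene groups and 36 marker sum groups of 4 values checked, by the gap between its value and the nearest other. Chance alone gives about 1 in 20. In CD ertugliflozin, replicate 4 was high for Chrna2 (6.32 CPM, the others 3.29 to 3.79) and Slc2a4 (519, others 426 to 439) and low for Gbp3 (27.3, others 32.4 to 33.2). Replicate 3 was high for Mthfd2 (7.99 CPM, others 4.23 to 4.66). Replicate 1 was low for Kcnj14 (1.15 CPM, others 1.72 to 1.77) and S100a1 (517, others 546 to 549).

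In HFHS ertugliflozin, replicate 1 was low for Fabp3 (1402 CPM, others 1509 to 1531), Tnnc1 (1968, others 2202 to 2236) and Masp1 (19.8, others 24.4 to 25.1) and high for Stat2 (25.4, others 21.6 to 22.2). Replicate 3 was high for Ucp3 (158.7 CPM, others 115 to 118) and the summed endothelial markers (4158, others 3625 to 3666) and low for Dbt (83.4, others 86.2 to 86.7) and Slc2a4 (344, others 362 to 363). Replicate 4 was low for Gbp5 (10.6 CPM, others 12.9 to 13.3) and Col6a1 (121, others 128 to 129), and replicate 2 was high for Mmp13 (1.29, others 0.47 to 0.60).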

How the results depend on the processing

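The diet effect with ertugliflozin gave 584 genes (341 higher, 243 lower). DESeq2 gave 891 (517 and 374). Leaving out 1 library gave 287 to 470 (181 to 304 higher, 106 to 189 lower), and leaving out CD ertugliflozin replicates 2 and 3 together 236 (129 and 107), of which 173 were among the 584. The other scalings, filters and limma fits and the 8-library fit gave 523 to 845. Upper-quartile scaling moved the split to 290 higher and 302 lower (49.0% higher against 58.4%). Nothing in the labels says that the replicate numbers pair the animals. Same-numbered CD and HFHS libraries had correlations of 0.173, −0.0596, 0.313 and 0.0896 of their deviations, and libraries of unlike number −0.264 to 0.209. These values overlap and do not decide whether animals were paired. The replicate block gave 550 genes (329 higher, 221 lower), 484 of them shared. For the difference of the diet effects, 3 genes became 6 without a filter, 18 with DESeq2, 2 with the replicate block (Igtp, adjusted p = 0.113, was lost) and 0 to 18 when 1 library was left out. None of the called genes named changed direction. Of those not called, Nppb (−0.41 to 0.21), Slc5a1 (−0.41 to 0.17) and Ppara (−0.19 to 0.02) changed sign between alternatives, and upper-quartile scaling turned the list medians of thioesterases (0.01 to −0.01), triglyceride synthesis (0.01 to −0.01) and mural markers (0.01 to −0.0041). Of 141 called genes named or examined, 66 passed in every alternative and 75 failed in at least 1. Of 14 that were not called, Pdk4 and Bdh1 passed in at least 1, Bdh1 in the 8-library fit (adjusted p = 0.0161) and Pdk4 also with the replicate block (0.0323). With 4 selected animals per group, small differences of variable genes are not detectable.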

Other observations

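Some genes outside the lists, chosen after their values were seen, passed in every alternative run. Ephx2, the soluble epoxide hydrolase of lipid signalling, rose by 0.56 (SE 0.07, edgeR adjusted p = 9.91e-05), from 307 to 393 CPM across CD ertugliflozin libraries to 484 to 525 across HFHS ertugliflozin libraries. The retinol saturase gene Retsat rose by 0.63 (SE 0.08) and Acsf2, an acyl-CoA synthetase of mitochondria, by 0.57 (SE 0.08). Scn4a, the sodium channel of skeletal muscle, measured 56.2, 42.3, 51.2 and 71 CPM on CD and 99.1, 110, 88.6 and 90.5 on HFHS, without overlap (0.81, SE 0.14, edgeR adjusted p = 0.00553). Tnnt1, the slow skeletal troponin T, went the other way, with 12.3, 11.3, 9.65 and 11.1 CPM on CD and 6.90, 5.68, 6.38 and 5.69 on HFHS (−0.84, SE 0.10, edgeR adjusted p = 1.06e-04). Pyruvate carboxylase (Pcx), which refills the TCA cycle, changed by −0.47 (SE 0.09). Fkbp10, a chaperone of collagen, rose by 0.88 (SE 0.12).

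Beside the rise of Tfrc, the ferritin light chain gene Ftl1 was lower on HFHS (−0.38, SE 0.08, edgeR adjusted p = 0.0121), while the heavy chain gene Fth1 was at 0.03 and did not pass. The Ftl1 call ended without CD ertugliflozin replicates 2 and 3 together (edgeR adjusted p = 0.122). Gvin1, a giant interferon-inducible GTPase, was at −1.02 (SE 0.17, edgeR adjusted p = 0.00277) with ertugliflozin and at 0.26 without drug, and the difference between these values was not among the 3 that passed.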
